A study of Mus musculus with 9 samples.

Results

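The urea cycle and the start and end of gluconeogenesis are read here through 10 liver genes: Cps1, Otc, Ass1, Asl, Arg1, Hal, Sds, Gls2, Pck1 and G6pc. They were taken by name from 24008 genes listed in the count table, and all 10 were among the 14379 genes with enough reads to be tested. The livers came from male mice on a C57BL/6J background that were fed a diet to produce nonalcoholic steatohepatitis (NASH). In the study's methods this diet was high in fat and carbohydrate, held cholesterol, and came with a solution of fructose and glucose. Flox mice (labelled WT) were the controls, named for the floxed Irf4 gene. F4MKO mice lacked IRF4, a transcription factor, in skeletal muscle through Cre driven by the Myl1 gene, so the liver itself was not targeted. F4MKO + FSTL1 mice were F4MKO mice in which FSTL1, a secreted muscle protein, was returned to the gastrocnemius with an AAV8 virus under the muscle creatine kinase promoter. The study's methods describe an AAV-GFP control virus for the other groups, while the labels name no vector for them. The mice were 8 weeks old when the diet began, the methods give the diet as 24 weeks in one place and 12 weeks in another, and livers were taken 4 weeks after the virus. The hour of collection and the feeding state were not given in the sources used here. Each group held 3 libraries.

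Hepatocytes around the portal vein receive blood rich in oxygen, amino acids and ammonia, and these cells are known for urea synthesis, breakdown of amino acids and glucose production. In the urea cycle, CPS1 joins ammonia and bicarbonate in mitochondria, OTC makes citrulline, ASS1 and ASL carry the nitrogen onto arginine in the cytosol, and ARG1 releases urea. Ammonia reaches the cycle from enzymes such as HAL, which opens histidine breakdown, SDS, which splits serine into pyruvate and ammonia, and GLS2, the liver glutaminase. PCK1 makes phosphoenolpyruvate at the start of gluconeogenesis and G6PC frees glucose at its end, and both are classic fasting genes that insulin lowers.

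The libraries held 20656976 to 24322984 counted reads. The hepatocyte markers were abundant everywhere, and the kidney and gut markers Slc34a1, Umod, Slc22a6 and Alpi had at most 3 reads in any library and Vil1 at most 36. Fabp2, which liver also expresses, had 124 to 267 CPM, which are reads of a gene scaled to the size of its library, and it rose with FSTL1 (log2 fold change 0.78, edgeR adjusted p = 0.0111). Irf4 had 101 to 132 reads in Flox, 120 to 130 in F4MKO and 10 to 116 in F4MKO + FSTL1. It cannot check the knockout in liver, since muscle was targeted. Liver Fstl1 stood at 3.22 to 5.33 CPM in F4MKO + FSTL1, below the 6.15 to 7.62 CPM of Flox and the 9.80 to 16.1 CPM of F4MKO. The group labels could not be checked from liver, and every direction given here rests on them. F4MKO replicate 1 stood apart from the other libraries in CPM. Part of this rests on the scaling, since its scaling factor was the highest, 1.17 against 0.927 to 1.03 elsewhere. A higher factor lowers the CPM of a library. Its 10 hepatocyte markers (Alb, Ttr, Apoa1 and others) summed to 92324 CPM, against 111960 to 130586 CPM in the other 8 libraries. Alb gave 48834 CPM of that sum and was lowest there, while Trf (12937 CPM) and Ahsg (6928 CPM) were not lowest in this library. Its 8 cholangiocyte markers summed to 462 CPM, the highest of all, and Spp1 alone gave 397 CPM of it. In scaled CPM, F4MKO replicate 1 was also the lowest library for 8 of the 10 urea cycle and gluconeogenesis genes. For Cps1 (396 against 398 CPM) and Ass1 (1434 against 1463 CPM) it was close to F4MKO + FSTL1 replicate 2. As a plain share of counted reads, the 10 genes together held 0.680% in F4MKO replicate 1 and 0.691% in Flox replicate 1. The fold changes of those 8 genes are given with and without F4MKO replicate 1. In whole tissue, fewer cells of a type and less RNA per cell cannot be told apart.

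RefSeq promoters on GRCm38.p6, covering 250 bases before and 50 after the start site, were at hand for 5 of the 10 genes: Otc, Ass1, Hal, Pck1 and G6pc. They were searched on both strands for 6 motifs: TGACG, the core of the cAMP response element; TATAAA, the TATA box; GGGCGG, the GC box; AGGTCA, a nuclear receptor core; TGTTTAC, a forkhead core; and CCAAT. Over all 32851 mouse promoters of this length the shares holding them were 20.8%, 13.6%, 35.7%, 16.3%, 3.65% and 37.4%. With F4MKO replicate 1 included, Hal followed Asl, Gls2 and Arg1 closely from library to library. Pck1 was among the most abundant per length, and G6pc followed none of the others. The windows of Hal, Pck1 and G6pc are therefore shown. They lie at chr10:93488518-93488817, chr2:173152823-173153122 and chr11:101367466-101367765, all on the plus strand, with matches in capitals, written as they fall on the plus strand.
Hal: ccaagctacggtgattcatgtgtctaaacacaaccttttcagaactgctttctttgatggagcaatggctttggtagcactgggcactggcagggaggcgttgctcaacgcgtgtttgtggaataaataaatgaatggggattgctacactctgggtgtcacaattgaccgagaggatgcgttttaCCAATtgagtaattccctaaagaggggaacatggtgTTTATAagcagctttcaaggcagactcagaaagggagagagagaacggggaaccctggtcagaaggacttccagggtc
Pck1: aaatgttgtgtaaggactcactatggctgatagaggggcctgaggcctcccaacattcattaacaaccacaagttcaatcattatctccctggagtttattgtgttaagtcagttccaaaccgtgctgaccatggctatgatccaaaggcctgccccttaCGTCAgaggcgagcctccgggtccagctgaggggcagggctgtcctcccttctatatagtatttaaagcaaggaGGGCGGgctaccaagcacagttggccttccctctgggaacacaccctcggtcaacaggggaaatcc
G6pc: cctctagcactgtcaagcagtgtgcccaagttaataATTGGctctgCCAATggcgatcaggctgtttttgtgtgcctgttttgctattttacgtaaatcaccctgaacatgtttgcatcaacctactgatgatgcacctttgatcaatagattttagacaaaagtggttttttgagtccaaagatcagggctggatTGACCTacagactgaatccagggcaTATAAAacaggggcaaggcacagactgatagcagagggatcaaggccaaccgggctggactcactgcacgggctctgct
Positions count from the RefSeq start site. For Pck1 and G6pc the gene spans given below, from GENCODE, begin before that site, so matches near it can lie inside the span. The Hal window held a TATA box on the opposite strand at -28 and CCAAT at -64. The Pck1 window held the cAMP response element core on the opposite strand at -90 and a GC box at -16. The G6pc window held a TATA box at -29, the nuclear receptor core on the opposite strand at -54, and CCAAT on opposite strands at -204 and -214. No matches overlapped. Ass1 held a GC box at -63 and Otc held none of the 6 motifs, which says only that these letters are not in the window.

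Levels of different genes were ordered per kilobase of exon (CPM per kb, with exon lengths from GENCODE on GRCm38). Ass1 averaged 797 ± 153 CPM per kb (SD, n = 9) and Pck1 783 ± 132, and Ass1 exceeded Pck1 in only 3 of 9 libraries, so these did not differ in rank beyond their spread. Arg1 followed at 500 ± 115 CPM per kb, below Pck1 in 9 of 9 libraries. Sds averaged 209 ± 76.7 and G6pc 182 ± 39.0 CPM per kb, with Sds the higher in 6 of 9 libraries. Cps1 (121 ± 47.3) and Otc (114 ± 19.0) could not be ordered either, since Cps1 was the higher in 3 of 9 libraries. Asl stood at 80.6 ± 21.2 CPM per kb, above Gls2 (69.0 ± 15.7) in 7 of 9 libraries, and Hal closed the order at 39.2 ± 12.3, below Gls2 in 9 of 9.

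**Figure D1:**
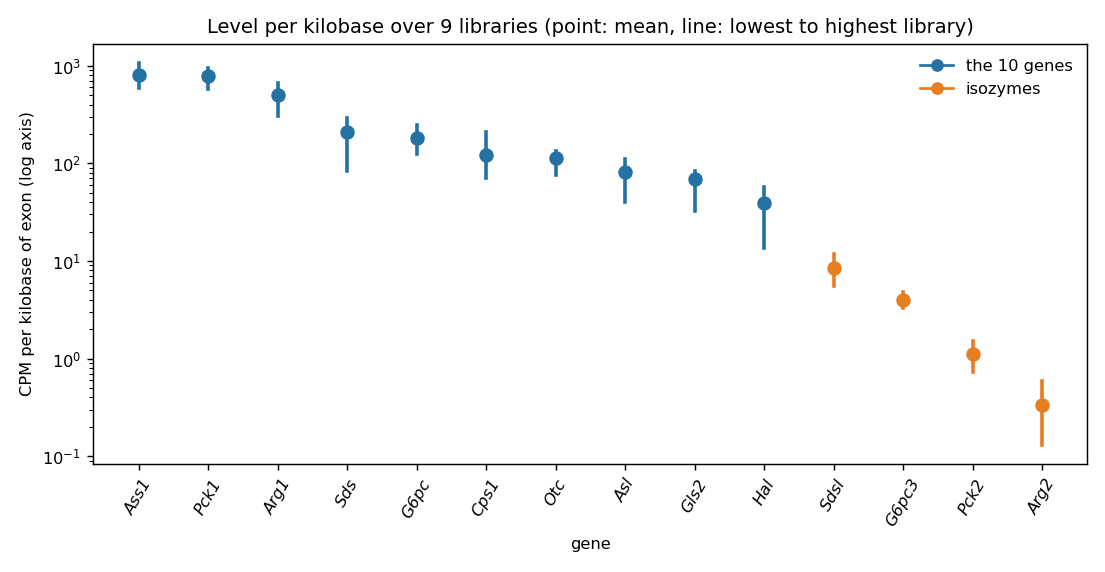
Mean level per kilobase of exon (point, log axis) and the range from the lowest to the highest of 9 libraries (line) for the 10 genes in blue and 4 isozymes in orange. The 10 genes run from 39.2 to 797 CPM per kb, all above these isozymes, of which Sdsl is the highest at 8.54.

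Isozymes that other tissues use were far lower. ARG2 is the mitochondrial arginase, PCK2 the mitochondrial form of PCK1, G6PC3 the widely expressed glucose-6-phosphatase and SDSL a serine dehydratase relative. Per kb, Arg1 exceeded Arg2 by 732 to 3982 times over the 9 libraries and Pck1 exceeded Pck2 by 406 to 1261 times. G6pc exceeded G6pc3 by 26.1 to 74.2 times and Sds exceeded Sdsl by 13.9 to 34.5 times. G6pc2, the pancreatic islet form, had at most 3 reads in a library and was not tested.

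To learn whether the loss of IRF4 in muscle altered this periportal program, F4MKO was compared with Flox. None of the 10 genes passed the test, which asked for an adjusted p under 0.05 by edgeR's quasi-likelihood test and a change above 1.5-fold. Over all genes 0.271% passed, 29 higher and 10 lower. At an unadjusted p under 0.05 the count was 1 of 10 (Otc), against 16.9% of all tested genes, and DESeq2 called 0 of the 10. In no gene did the groups separate, while 21.8% of all tested genes had CPM ranges that did not overlap. The median log2 fold change of the 10 was -0.19 against -0.003 over all genes, with 3 fitted values above and 7 below 0. The 10 hepatocyte markers had a median of -0.30, with 1 above and 9 below 0. Without F4MKO replicate 1 the median of the 10 urea cycle and gluconeogenesis genes was -0.01 with 5 above and 5 below. Without F4MKO replicate 2 it was -0.34 with all 10 below 0.

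To learn what FSTL1 did in the knockout, F4MKO + FSTL1 was compared with F4MKO. Here 14.4% of all tested genes passed, 461 higher and 1609 lower, and again 0 of the 10 passed, by edgeR as by DESeq2. At an unadjusted p under 0.05, which 35.3% of all tested genes reached, the count was 2 of 10, Otc and Gls2. These were also the genes in which all 3 F4MKO + FSTL1 libraries lay above all 3 F4MKO libraries, 2 of 10, where 39.0% of all tested genes had ranges that did not overlap. The median log2 fold change was 0.20 against 0.01 over all genes, with 8 fitted values above 0 and 2 below. The median was 0.07 without F4MKO replicate 1, with 6 above and 4 below. Scaling by total counts alone moved the median of all genes to -0.18 and left 5 of the 10 above 0, and the median of the 10 stood 0.21 above that of all genes.

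F4MKO + FSTL1 was then compared with Flox. In this comparison 0.00695% of tested genes passed, a single gene, and 0 of the 10 did, with 0 by DESeq2. At an unadjusted p under 0.05 the count was 0 of 10, against 13.4% of all tested genes. Only Otc had groups that did not overlap, 1 of 10, beside 18.2% of all tested genes. The median log2 fold change was 0.10, with 6 fitted values above 0 and 4 below. This comparison and the others share their libraries, so their values for a gene are not independent.

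**Figure D2:**
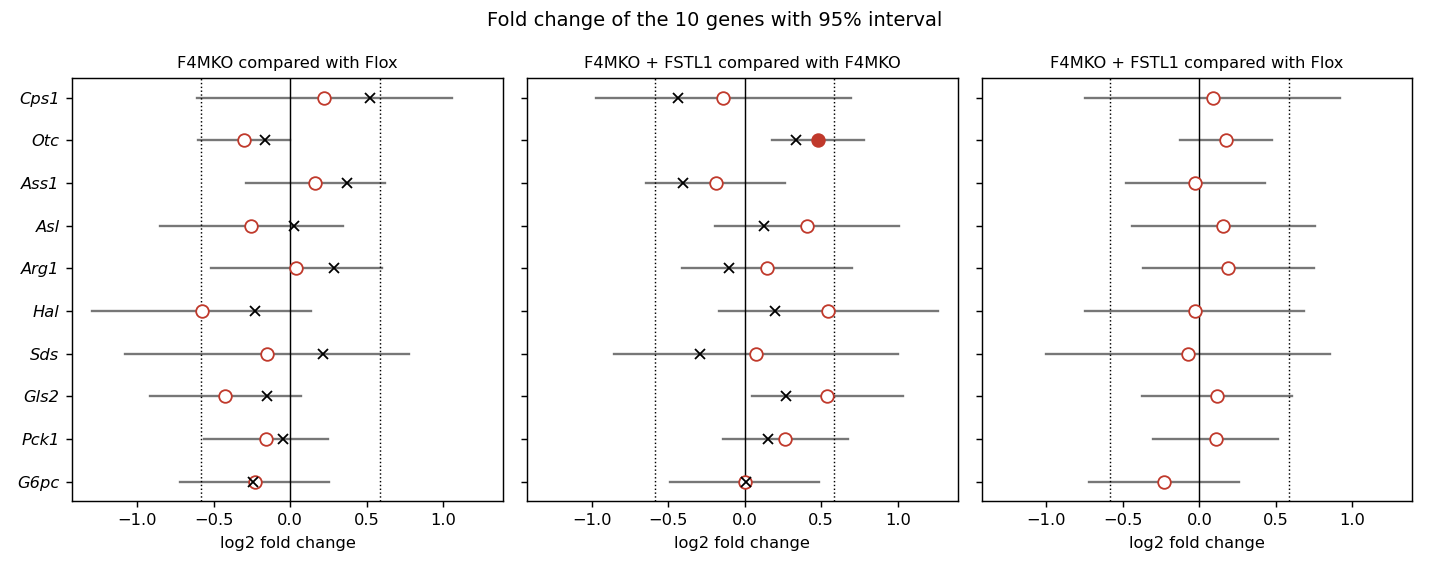
Log2 fold change (circle) with its 95% interval (line) for the 10 genes in the 3 comparisons. A filled circle has an adjusted p under 0.05, crosses give the value without F4MKO replicate 1, and dotted lines mark 1.5-fold. Otc in F4MKO + FSTL1 compared with F4MKO, at 0.48, is the only filled circle and lies inside the dotted lines.

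Among the urea cycle enzymes, Otc (chrX:10252305-10321024) had the smallest spread within groups of the 10 genes. It stood at 532, 485 and 468 CPM in Flox replicates 1 to 3, at 320, 409 and 475 CPM in F4MKO, and at 558, 565 and 553 CPM in F4MKO + FSTL1. The FSTL1 libraries lay within 1.02-fold of each other, above every other library. Otc was 1.39-fold higher in F4MKO + FSTL1 than in F4MKO (95% interval 1.13 to 1.72, log2 SE 0.14, edgeR adjusted p = 0.0312), which passed the adjusted p but not the fold. The log2 fold change was 0.34 without F4MKO replicate 1, with an edgeR adjusted p of 0.0914. Without F4MKO replicate 3, the highest F4MKO library, it was 0.62 with an adjusted p of 0.0113, and both thresholds were passed. In F4MKO compared with Flox, the Otc value was -0.30 on the log2 scale (SE 0.14, adjusted p = 0.296), and -0.16 without F4MKO replicate 1.

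Cps1 (chr1:67123026-67231259), which sets the entry of ammonia into the cycle, varied most among the urea cycle enzymes. Its levels were 790, 544 and 542 CPM in Flox, 396, 1174 and 622 CPM in F4MKO, and 980, 398 and 611 CPM in F4MKO + FSTL1. The lowest and the highest library were both F4MKO, 2.97-fold apart, and the groups overlapped throughout. The log2 fold change was 0.22 (SE 0.38) in F4MKO compared with Flox and -0.14 (SE 0.38) in F4MKO + FSTL1 compared with F4MKO, with an interval from 0.510- to 1.62-fold for the latter. Without F4MKO replicate 2 the signs turned, with a log2 value of -0.30 in the former and 0.38 in the latter. The values were 0.52 and -0.44 without F4MKO replicate 1.

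Ass1 (chr2:31470207-31520672) and Asl (chr5:130011258-130029247) catalyse successive steps and overlapped between groups in every comparison. Ass1 stood at 1669, 2072 and 1841 CPM in Flox, 1434, 2571 and 2252 CPM in F4MKO, and 2066, 1463 and 1953 CPM in F4MKO + FSTL1. Asl stood at 315, 372 and 500 CPM in Flox, 192, 383 and 421 CPM in F4MKO, and 449, 341 and 531 CPM in F4MKO + FSTL1. F4MKO replicate 1 was the lowest library for both. In F4MKO + FSTL1 compared with F4MKO the log2 fold change was -0.19 (SE 0.21, adjusted p = 0.547) for Ass1 and 0.41 (SE 0.27, adjusted p = 0.315) for Asl. The Ass1 interval ran from 0.639- to 1.2-fold. These values were -0.40 for Ass1 and 0.13 for Asl without F4MKO replicate 1. In F4MKO compared with Flox the log2 fold change was 0.16 for Ass1 and -0.25 for Asl, and 0.37 and 0.03 without that library, so the sign of Asl turned. Without F4MKO replicate 2, Ass1 stood at -0.02 in both of these comparisons.

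Arg1 (chr10:24915221-24927484), which closes the cycle, stood at 784, 1155 and 1226 CPM in Flox, 686, 1215 and 1356 CPM in F4MKO, and 1161, 969 and 1475 CPM in F4MKO + FSTL1. Each group held a low library and no group stood clear of another. The log2 fold changes were 0.04, 0.15 and 0.19 in the 3 comparisons, with an SE of 0.25 in each, and in F4MKO + FSTL1 compared with F4MKO the interval ran from 0.752- to 1.63-fold. Leaving out F4MKO replicate 1 gave 0.29 in F4MKO compared with Flox and -0.10 in F4MKO + FSTL1 compared with F4MKO. In the latter the sign also turned with total counts and without F4MKO + FSTL1 replicate 3, and in the former without Flox replicate 1, F4MKO replicate 2 or F4MKO replicate 3. Over the 5 urea cycle enzymes together, 3 fitted values were above 0 in F4MKO + FSTL1 compared with F4MKO and 2 below.

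The 3 ammonia-releasing enzymes had fitted values below 0 in F4MKO compared with Flox and above 0 in F4MKO + FSTL1 compared with F4MKO, where the value of Sds was below 0 with total counts, and none of them passed the test. Hal (chr10:93488768-93519304) stood at 213, 229 and 298 CPM in Flox, 75.7, 216 and 204 CPM in F4MKO, and 215, 193 and 316 CPM in F4MKO + FSTL1. The F4MKO mean was set by replicate 1, at 35.2% of the median of the other libraries, while the other F4MKO libraries lay inside the range of F4MKO + FSTL1. The log2 fold change was -0.58 (SE 0.33, edgeR adjusted p = 0.397) in F4MKO compared with Flox and 0.55 (SE 0.33, adjusted p = 0.258) in F4MKO + FSTL1 compared with F4MKO. These were -0.23 and 0.20 without F4MKO replicate 1.

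Gls2 (chr10:128194457-128210004) had, like Otc, a narrow range in its FSTL1 libraries. It stood at 228, 242 and 292 CPM in Flox, 112, 239 and 218 CPM in F4MKO, and 262, 282 and 283 CPM in F4MKO + FSTL1. All F4MKO + FSTL1 libraries exceeded all F4MKO libraries and lay within the range of Flox. The difference was 1.45-fold (95% interval 1.03 to 2.05, log2 SE 0.22, edgeR adjusted p = 0.110), and without F4MKO replicate 1 the log2 fold change was 0.27 (adjusted p = 0.196). In F4MKO compared with Flox it was -0.42 (SE 0.22, adjusted p = 0.364), and -0.15 without that library. Gls2 shares 97 exon bases with Spryd4 on the other strand, and the strand setting of the counting was not given, so reads there cannot be told apart.

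Sds (chr5:120476526-120483932) spread most of all. It stood at 190, 432 and 494 CPM in Flox, 143, 453 and 409 CPM in F4MKO, and 354, 240 and 464 CPM in F4MKO + FSTL1. Replicate 1 was the low library in both Flox and F4MKO, and within-group spread on the log2 scale exceeded that of 97.8% of tested genes. The log2 fold changes of -0.15, 0.07 and -0.08 in the 3 comparisons each had an SE of 0.42. The interval in F4MKO + FSTL1 compared with F4MKO, 0.553- to 2.0-fold, holds changes past 1.5-fold in either direction. Leaving out F4MKO replicate 1 turned the sign of both comparisons with F4MKO, to 0.21 against Flox and -0.29 for F4MKO + FSTL1 against it. Sds shares 360 exon bases with Plbd2 and 141 with Gm15690, both on the other strand.

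**Figure D3:**
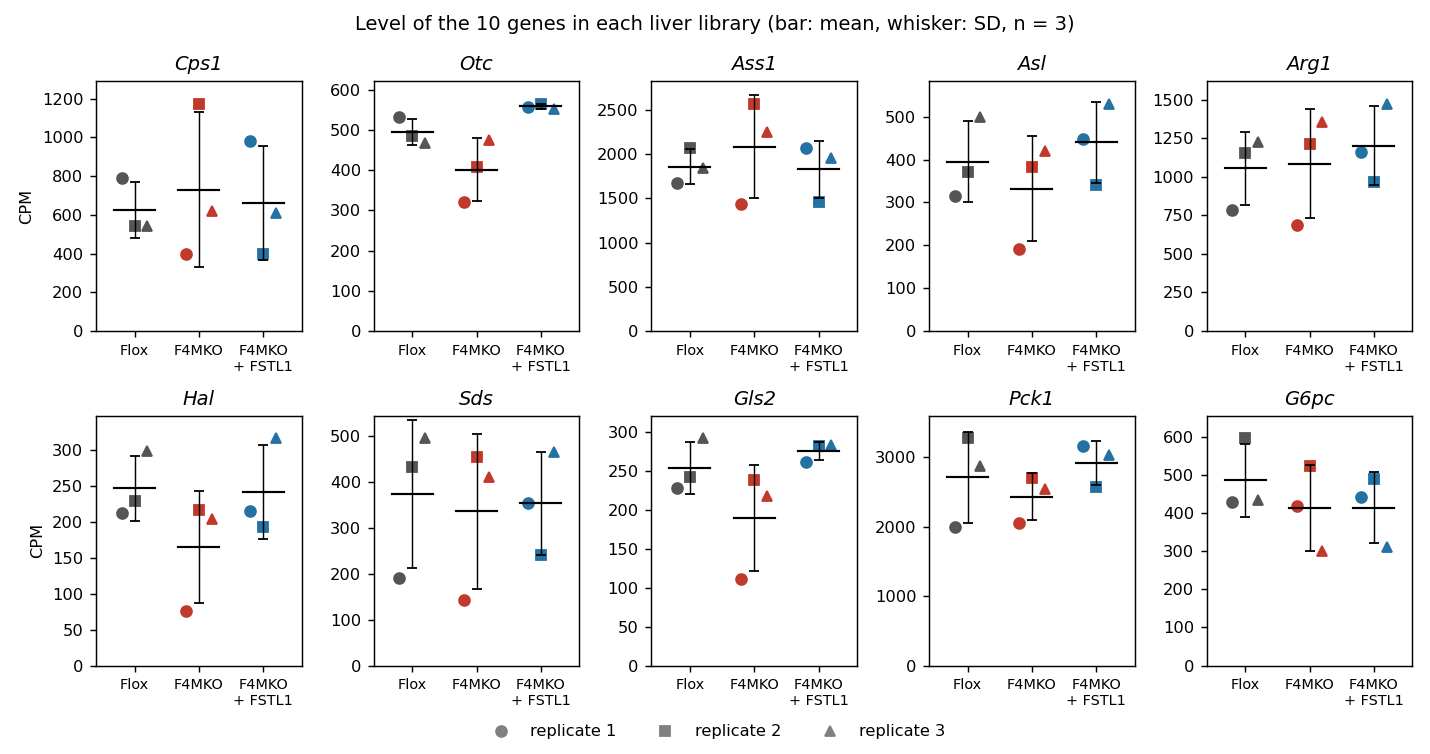
Level in CPM (linear axis from 0) of each of the 10 genes in each library, by group, with the mean (bar) and SD (whisker) of 3 libraries and a marker shape for each replicate number. F4MKO replicate 1 is the lowest library in 8 panels, and Otc in F4MKO + FSTL1 is the tightest group, at 553 to 565 CPM.

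Of the gluconeogenic enzymes, Pck1 (chr2:173153048-173159273) stood at 1987, 3267 and 2868 CPM in Flox, 2045, 2697 and 2544 CPM in F4MKO, and 3158, 2561 and 3029 CPM in F4MKO + FSTL1. Its lowest and its highest library were both Flox. The log2 fold change was -0.16 (SE 0.19) in F4MKO compared with Flox and 0.26 (SE 0.19, adjusted p = 0.340) in F4MKO + FSTL1 compared with F4MKO, with an interval from 0.905- to 1.59-fold. These values were -0.05 and 0.15 without F4MKO replicate 1. G6pc (chr11:101367561-101377903) stood at 429, 596 and 433 CPM in Flox, 418, 525 and 300.0 CPM in F4MKO, and 443, 490 and 311 CPM in F4MKO + FSTL1. F4MKO and F4MKO + FSTL1 had nearly the same mean, 414 ± 113 and 414 ± 92.5 CPM (SD, n = 3 each), and the interval of their difference ran from 0.714- to 1.40-fold. The G6pc log2 fold change was 0.0005 between them, and -0.23 for each of them compared with Flox. With each library left out it ranged from -0.18 to 0.21 in F4MKO + FSTL1 compared with F4MKO. In F4MKO compared with Flox it ranged from -0.44 to -0.05. Unlike the urea cycle enzymes, G6pc was not lowest in F4MKO replicate 1, and neither was Pck1.

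Over the 9 libraries, F4MKO replicate 1 included, most of the genes varied together within groups. After each group's mean was taken off the log2 CPM values, the median Pearson r over the 45 pairs was 0.58 (9 libraries, a description across pairs that share libraries and their scaling). In 16 pairs r exceeded 0.8. These values include F4MKO replicate 1, which was the lowest library in CPM for 8 of the genes. How far the r values rest on that library was not tested. Whether they are higher than those between other tested genes was not tested either. The closest pairs were Arg1 with Sds at 0.98, Asl with Arg1 at 0.96 and Asl with Hal at 0.95. G6pc stood outside, with r from -0.36 with Asl to 0.19 with Pck1, and Cps1 followed Ass1 (0.76) more closely than any other gene.

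**Figure D4:**
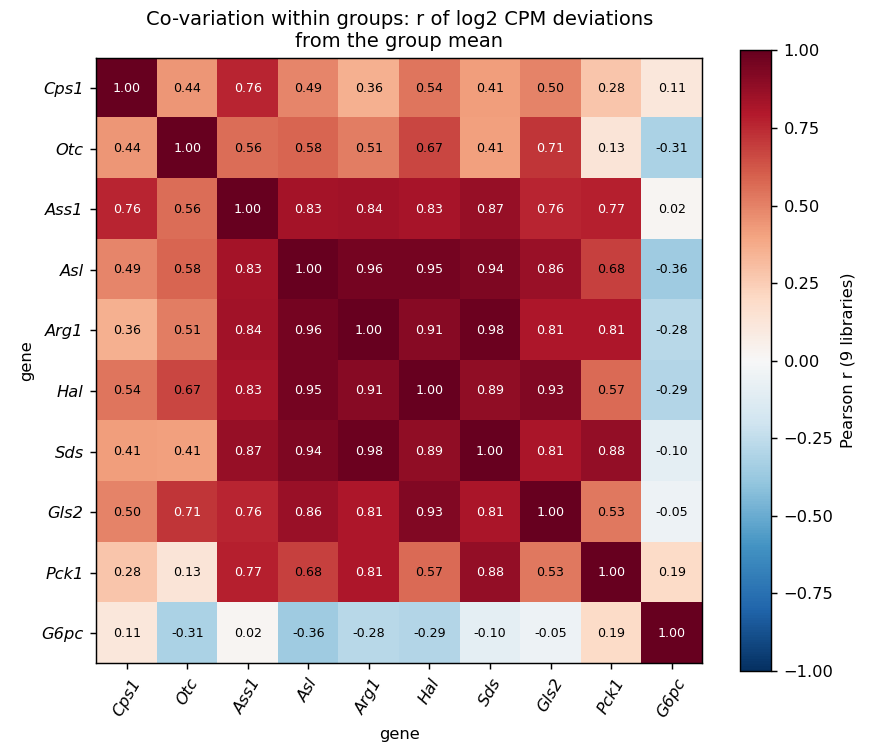
Pearson r between each pair of the 10 genes over 9 libraries, on log2 CPM after each group's mean was subtracted; red is positive and blue negative. With F4MKO replicate 1 included, Asl, Arg1, Hal, Sds and Gls2 form a block of r from 0.81 to 0.98. G6pc has no r above 0.19.

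The shortfall in F4MKO replicate 1 was also set against its hepatocyte markers, as reads of the gene relative to reads of those markers. On that scale 3 of the 10 genes were lowest there, Asl, Hal and Gls2, at 63.8%, 47.6% and 59.4% of the median of the other libraries. Sds stood at 44.7% and was not the lowest, since Flox replicate 1 lay below it. Ass1 and Pck1 stood at 98.5% and 97.4%, and G6pc at 132%.

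Genes whose profile over the 9 libraries was most like that of the 5 urea cycle enzymes, by Pearson r of log2 CPM with their mean z score, were Dhtkd1 (0.95), Gm34451 (0.94), Gm15776 (0.94), Atl2 (0.94) and Zbed5 (0.93). Dhtkd1 encodes an enzyme of lysine breakdown. Those most like Pck1 were Msl3 (0.94), Thrsp (0.94), Chac1 (0.93), Gm16573 (0.93) and Slc2a2 (0.93), the last being the liver glucose transporter GLUT2. These are the highest of all other tested genes, over 9 libraries, and are given as a description.

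Genes of related metabolic and regulatory lists were called only in F4MKO + FSTL1 compared with F4MKO, where 14.4% of all tested genes were, and 0 were called in the other comparisons. Of 9 urea cycle partners 1 rose, Car5a, the mitochondrial carbonic anhydrase that supplies bicarbonate to CPS1. Car5a stood at 34.7, 40.5 and 48.0 CPM in Flox, 25.8, 33.0 and 33.6 CPM in F4MKO, and 69.8, 50.2 and 50.7 CPM in F4MKO + FSTL1, with no overlap between the last and either other group. It was 1.85-fold higher than in F4MKO (95% interval 1.44 to 2.36, edgeR adjusted p = 0.00422). The log2 fold change was 0.77 without F4MKO replicate 1 (adjusted p = 0.0208). Nags, whose product makes the activator of CPS1, stood at 0.19 on the log2 scale (SE 0.13, adjusted p = 0.334), and the list's median was 0.19 against 0.01 over all genes.

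Of 12 other gluconeogenesis genes 0 rose and 1 fell, Pck2, and the list's median was 0.09. Pck2 stood at 8.56, 9.14 and 8.12 CPM in Flox, 11.5, 11.9 and 10.5 CPM in F4MKO, and 5.70, 5.96 and 6.95 CPM in F4MKO + FSTL1. The 3 groups did not overlap, with F4MKO highest. Pck2 was 0.549-fold of F4MKO with FSTL1 (95% interval 0.455 to 0.662, edgeR adjusted p = 0.00168), and it passed with each of the 6 libraries left out in turn. Among the isozymes, Arg2 also fell, to 0.373-fold (adjusted p = 0.0341), on only 4 to 21 reads a library, and was not called by DESeq2 (adjusted p = 0.0716) or without F4MKO replicate 1 (adjusted p = 0.0513). On the log2 scale the change was -0.14 for G6pc3 (adjusted p = 0.524) and 0.43 for Sdsl (adjusted p = 0.134), and neither passed.

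Of 21 amino acid breakdown genes tested 2 rose and 0 fell, Hpd of tyrosine breakdown and Ftcd, which acts downstream of HAL in histidine breakdown. Ftcd averaged 370 ± 19.1 CPM in F4MKO + FSTL1 against 236 ± 37.4 in F4MKO (SD, n = 3 each; log2 fold change 0.65, edgeR adjusted p = 0.00541). Hpd averaged 2419 ± 240 against 1522 ± 416 CPM (log2 fold change 0.67, adjusted p = 0.0288). Without F4MKO replicate 1 their log2 fold changes, 0.53 for Ftcd and 0.45 for Hpd, were under the 1.5-fold limit. The list's median was 0.23. Uroc1 and Amdhd1, the enzymes between HAL and FTCD, had log2 fold changes of 0.19 and 0.20 and did not pass.

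**Figure D5:**
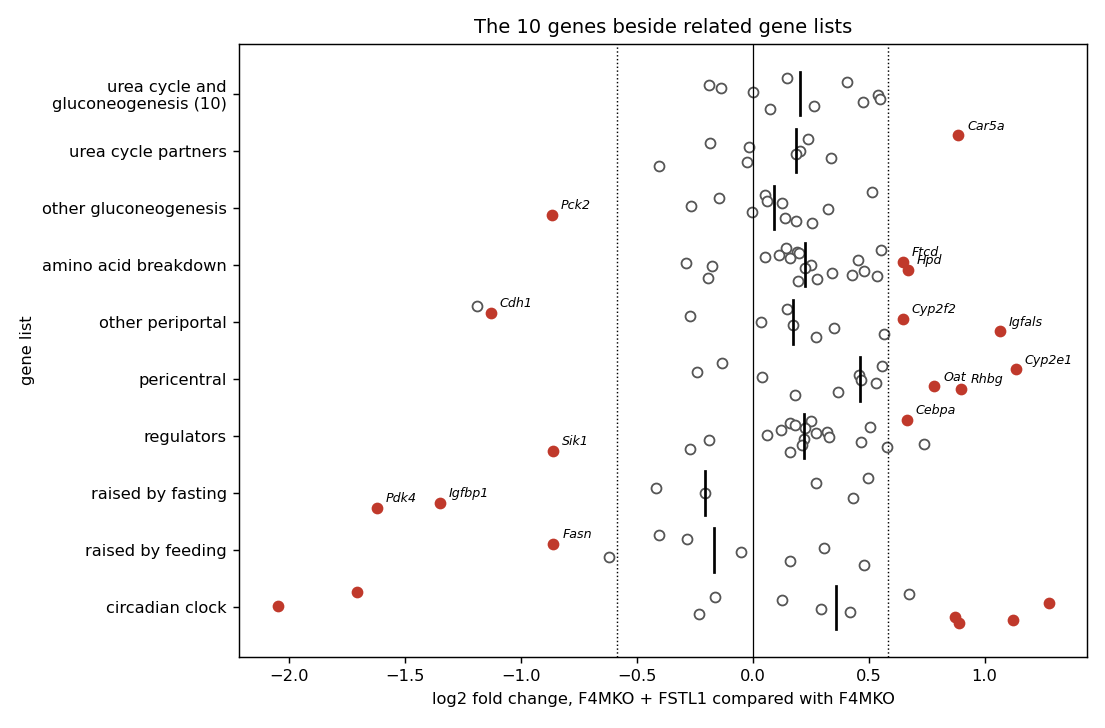
Log2 fold change of each tested gene in F4MKO + FSTL1 compared with F4MKO, by list, with genes that passed the test filled, list medians as black bars and dotted lines at 1.5-fold. The 10 genes have no filled point and a median of 0.20, and Car5a, Pck2, Hpd and Ftcd are the filled points of the adjoining metabolic lists.

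Of 20 regulators of these pathways 1 rose and 1 fell with FSTL1, and the list's median was 0.22. Cebpa, a liver transcription factor that acts on urea cycle and gluconeogenic genes, averaged 485 ± 57.6 CPM against 306 ± 22.4 CPM in F4MKO (SD, n = 3 each; log2 fold change 0.66, edgeR adjusted p = 0.00823). Sik1, a kinase that restrains cAMP-driven gluconeogenesis, averaged 11.8 ± 1.33 against 21.4 ± 11 CPM (log2 fold change -0.86, adjusted p = 0.0463), and without F4MKO replicate 1 the value was -0.36 with an adjusted p of 0.145. Ppargc1a, a coactivator of the fasting response, stood at -0.27 on the log2 scale (SE 0.31) and Gcgr, the glucagon receptor, at 0.32 (SE 0.11, adjusted p = 0.0632).

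Genes that fasting raises and genes that feeding raises were read beside Pck1 and G6pc. Of 7 fasting genes tested 0 rose and 2 fell with FSTL1, Pdk4 (log2 fold change -1.62, adjusted p = 0.00189) and Igfbp1 (-1.35, adjusted p = 0.00499), with a list median of -0.21. Of 8 feeding genes 0 rose and 1 fell, Fasn (-0.86, adjusted p = 0.0129), with a median of -0.17. The Fasn value was -0.74 without F4MKO replicate 1 (adjusted p = 0.0552). Of 12 circadian clock genes 4 rose and 2 fell, among them Npas2 (-2.05), Arntl (-1.71), Dbp (1.28), Per3 (1.12) and Tef (0.89). The part of feeding state or hour in the levels of the 10 genes was not tested.

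Markers of other liver cells also differed between the groups in which the 10 genes were compared. Over all tested genes 14.4% passed in F4MKO + FSTL1 compared with F4MKO, 461 higher and 1609 lower. Of 10 stellate cell markers 7 fell with FSTL1, the largest changes being in Col1a1 (log2 fold change -2.25), Col3a1 (-1.98), Timp1 (-1.97), Col1a2 (-1.63) and Pdgfrb (-0.88). They summed to 415 to 483 CPM in Flox, 560 to 722 CPM in F4MKO and 269 to 376 CPM in F4MKO + FSTL1, so F4MKO was the highest group. Of 10 macrophage markers 6 fell, among them Gpnmb (-2.65), Trem2 (-2.44), Cd68 (-1.10), Cd5l (-1.02) and Adgre1 (-0.96). Their sums were 438 to 715 CPM in Flox, 517 to 625 in F4MKO and 258 to 406 in F4MKO + FSTL1. Of 7 cholangiocyte markers tested 5 fell, Muc1 (-2.65), Spp1 (-2.64), Epcam (-2.58), Krt7 (-1.93) and Krt19 (-1.87), with sums of 70.3 to 109 CPM in Flox, 183 to 462 in F4MKO and 54.5 to 70.5 in F4MKO + FSTL1. Spp1 alone held 42.2 to 78.2 CPM in Flox, 143 to 397 in F4MKO and 29.8 to 45.6 in F4MKO + FSTL1. Of 8 proliferation markers 8 fell, the largest changes being in Bub1 (-4.15), Ccnb1 (-4.12), Aurkb (-2.86), Mki67 (-2.54) and Top2a (-2.33), with sums of 15.4 to 26.3 CPM in Flox, 31.7 to 38 in F4MKO and 6.25 to 9.98 in F4MKO + FSTL1. The first of these rest on few reads: in F4MKO + FSTL1 Bub1 had 0 to 3 a library, Ccnb1 3 to 5 and Aurkb 0 to 7. Of 10 endothelial and 7 lymphocyte markers tested 0 passed. In F4MKO compared with Flox, Spp1 (2.05), Epcam (2.01) and Gpnmb (1.70) rose, and in F4MKO + FSTL1 compared with Flox the proliferation marker Ccnb1 (-3.15) fell. Of 10 hepatocyte markers 1 rose with FSTL1, Apoa2 (0.82), and the list's median was 0.41. The part of these markers in the differences of the 10 genes was not tested, and scaling to the hepatocyte marker counts left 0 of the 10 past the test in each comparison.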

How the data were processed

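Liver RNA from 9 libraries was sequenced as paired reads. Per the labels and the study's methods, the authors trimmed reads with Trim Galore 0.6.7, mapped them to mm10 with HISAT2 2.2.1 and counted reads per gene with featureCounts 2.0.1, and deposited a table of raw counts. The annotation, strand setting and handling of reads with several matches were not given in the sources used here, and reads shared with near-identical genes could be lost or split.

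Genes were tested with edgeR 4.0.16 (R 4.3.3): TMM scaling (factors 0.927 to 1.17), filterByExpr (minimum count 10), 1 quasi-likelihood fit over all 9 libraries, Benjamini-Hochberg adjustment over 14379 genes, adjusted p under 0.05 and change above 1.5-fold. Intervals are 95% from the fit. CPM are TMM-scaled; log2 CPM for correlations and z scores add a prior count of 2. Exon lengths came from GENCODE (GRCm38). The 10 genes and the other lists were chosen with earlier results of these data known. From the other lists, each gene that passed was named, at most 5 by size per list and comparison, with the isozymes, of which 1 is not reported here; genes outside this rule that are named for their role (Nags, Uroc1, Amdhd1, Ppargc1a, Gcgr) were added after their values were seen. The group labelled WT was taken as Flox. The labels do not say that libraries are separate animals, so p-values measure the spread between libraries. No libraries agreed within sampling noise. The fit was tested on simulated data. Alternatives were DESeq2 1.42.0, other scalings, no filter, the compared libraries alone, a replicate block, a test against 1.5-fold, and each library left out. Intervals cover the fit's error and not what depth cannot show.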

Additional observations from a re-analysis of the deposited data

How the results depend on the processing

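None of the 10 genes passed in F4MKO compared with Flox or in F4MKO + FSTL1 compared with Flox under any alternative run. In F4MKO + FSTL1 compared with F4MKO the count was 1 of 10 under the replicate block (Gls2, log2 fold change 0.59, edgeR adjusted p = 0.0431), where 2170 of 14379 tested genes passed. It was 1 of 10 with no fold limit (Otc), where 3001 of all tested genes passed. With each library left out it was 0 to 1, the 1 being Otc without F4MKO replicate 3. Of 540 alternative values over 30 gene and comparison pairs, 36 changed sign, and 16 of the 30 pairs kept their sign in every alternative. Scalings changed the sign of 3 pairs: Arg1, Sds and G6pc in F4MKO + FSTL1 compared with F4MKO. Total counts moved the median of all genes by 0.12 in F4MKO compared with Flox.

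Over all genes, F4MKO compared with Flox gave 39 calls, and 59 with total counts, 197 scaled to hepatocyte markers, 338 with DESeq2, 478 unfiltered, 11 with 6 libraries, 134 with the replicate block, 0 against 1.5-fold and 0 to 100 with a library left out. F4MKO + FSTL1 compared with F4MKO gave 2070 calls, 620 against 1.5-fold and 1295 to 2216 with a library left out. F4MKO + FSTL1 compared with Flox gave 1 call, and 2 with DESeq2 size factors, 2 with total counts, 40 scaled to hepatocyte markers, 284 with DESeq2, 379 unfiltered, 0 with 6 libraries, 15 with the replicate block, 0 against 1.5-fold and 0 to 101 with a library left out. The cause was not tested. Deviations of same-numbered libraries had r of -0.10 to 0.30, not above 0.1 in every pair, so the numbers were not taken as paired. All 3 pairs of replicate 3 exceeded 0.1 (0.17 to 0.30), replicate 3 libraries stood at 16.8 to 24.2 on PC2 against at most 2.40 elsewhere, and in 6 of 6 libraries of F4MKO and F4MKO + FSTL1 the best correlate in the other group had the same number (13 of 18 over all comparisons), which is a hint from the data and not from the design. With 3 libraries a group, the intervals of Cps1, Hal and Sds span changes past 1.5-fold in both directions in 1 or more comparisons. Differences of that size are not excluded for them. A change near 1.5-fold in the other genes could also fail the test, which asks for a fitted change above 1.5-fold. In the comparisons with Flox only 39 and 1 of all tested genes passed, and whether this reflects few differences or few libraries was not tested.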

Other observations

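Other zonated hepatocyte genes were compared beside the periportal enzymes in F4MKO + FSTL1 and F4MKO. Of 11 other periportal genes 2 rose and 1 fell: Igfals, which carries IGF1 in blood (log2 fold change 1.07, edgeR adjusted p = 0.0183), Cyp2f2, a periportal cytochrome (0.65, adjusted p = 0.0179), and Cdh1, the epithelial cadherin (-1.13, adjusted p = 0.0063). Cdh1 is also made by cholangiocytes. Without F4MKO replicate 1, Cyp2f2 stood at 0.47 and Igfals had an adjusted p of 0.0612. Of 12 pericentral genes 3 rose and 0 fell: Cyp2e1, which oxidises ethanol (1.13, adjusted p = 0.00206), Rhbg, an ammonia transporter (0.90, adjusted p = 0.0316), and Oat, which breaks down ornithine (0.78, adjusted p = 0.0406). Without F4MKO replicate 1, Cyp2e1 had an adjusted p of 0.00634, Rhbg had an adjusted p of 0.0525 and Oat of 0.120. The medians were 0.17 for the periportal and 0.46 for the pericentral list, against 0.01 over all genes. The difference between the lists was not tested.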
